A study of Mus musculus with 24 samples.

Results

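The replication-dependent histone genes were taken as every entry of the count table whose symbol begins with Hist and a cluster number from 1 to 4, which gave 70 of 48526 genes. By class they were 6 genes of the linker histone H1, 20 of H2A, 19 of H2B, 12 of H3 and 13 of H4. The table profiles renal cortex of C57BL/6 mice, with 24 libraries in 4 groups of 6. The groups were diabetic mice given PMX-53, diabetic mice given water alone (called vehicle here), non-diabetic mice given PMX-53 and non-diabetic mice given vehicle. Diabetes was induced at 6 weeks of age with 5 injections of 55 mg/kg streptozotocin, a toxin of the insulin-producing beta cells, and the non-diabetic mice received sodium citrate. PMX-53, a peptide that blocks C5aR1, the receptor of the complement fragment C5a, was given at 2 mg/kg in the drinking water, and all mice were followed for 24 weeks. RNA was depleted of ribosomal RNA and not selected for poly(A) tails, and each library held 10964992 to 22000895 counts.

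Replication-dependent histone genes supply the H1, H2A, H2B, H3 and H4 proteins that package newly copied DNA. They lie in clusters, most have no intron, and their mRNAs end in a conserved stem and loop in place of a poly(A) tail. The stem-loop binding protein SLBP and the U7 small nuclear ribonucleoprotein act on that end, transcription rises with entry into S phase, and the mRNAs are degraded when DNA synthesis stops. Some of these genes also give polyadenylated transcripts in differentiated cells, and adult kidney tubules divide rarely.

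The stem and loop was searched for in the annotated transcripts (GENCODE M21, GRCm38) as a stem of 6 paired bases that starts GG around a loop of 4 bases that starts TT, within 100 bases after the stop codon. It was found in 44 of the 70 genes, 21 to 58 bases after the stop codon, and in 68 of 21017 other protein-coding genes, or 0.324%. Of the 26 genes without a match, 15 had fewer than 16 annotated bases after the stop codon and 3 were annotated without a stop codon. The match had 6 forms, and examples of 5 of them are shown because their genes carry the results below; capitals mark the paired stem and small letters the loop.
Hist1h3e: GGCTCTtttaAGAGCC
Hist1h1c: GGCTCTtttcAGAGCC
Hist1h4d: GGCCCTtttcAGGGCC
Hist1h4i: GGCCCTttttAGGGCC
Hist2h2ac: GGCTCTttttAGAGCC
These lie at chr13:23561903-23561918 on the minus strand for Hist1h3e, chr13:23739512-23739527 on the plus strand for Hist1h1c, chr13:23581950-23581965 on the plus strand for Hist1h4d, chr13:22040966-22040981 on the minus strand for Hist1h4i and chr3:96220418-96220433 on the minus strand for Hist2h2ac. The form of Hist1h3e was shared by 6 genes, among them Hist1h3f. That of Hist1h1c was the commonest, with 26 genes, among them Hist1h1d, Hist1h1e and Hist2h3c2. The form of Hist1h4d was in 7 genes, all of them H4, among them Hist1h4c, Hist1h4f and Hist1h4h. Hist1h4i shared its form with Hist2h4, and Hist2h2ac alone had its form. No such stem and loop was found in the annotated transcript of Hist1h2bc, which has 2 exons and 742 bases after the stop codon. The annotation ran on for more than 100 bases beyond the match in 22 genes, so their exon lengths cover more than the processed histone mRNA.

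Promoter windows of 250 bases before to 50 bases after the start were available for 62 of the 70 genes (RefSeq, GRCm38.p6). They were searched on both strands for the TATA box TATAAA, the CCAAT box CCAAT, the octamer ATGCAAAT and the H1 box AAACACA, none of which is contained in another. A gene counted as having a motif if any of its windows matched. CCAAT was in promoters of all 6 H1, 18 H2A, 16 H2B and 10 H3 genes and of 3 of 12 H4 genes, against 41.1% of 27025 genes. The octamer was in promoters of 7 of 18 H2A and 7 of 16 H2B genes and of no H1, H3 or H4 gene, against 1.97% of all genes. AAACACA was in promoters of 5 of 6 H1, 2 H2A and 2 H2B genes, against 8.22% of all genes. TATAAA was in promoters of 35 of the 62 histone genes, or 56.5%, against 15.7% of all genes. A match is a description of letters and not of binding. The promoters of genes that moved in opposite directions on diabetes are shown, with the matches in capitals: Hist1h3e (chr13:23562336-23562635, minus strand), Hist1h1d (chr13:23554782-23555081, plus strand), Hist1h4d (chr13:23581318-23581617, plus strand) and Hist1h4i (chr13:22041313-22041612, minus strand). Hist1h2ac (chr13:23683910-23684209, minus strand) is shown because its window reaches the start of Hist1h2bc, which is transcribed the other way.
Hist1h3e: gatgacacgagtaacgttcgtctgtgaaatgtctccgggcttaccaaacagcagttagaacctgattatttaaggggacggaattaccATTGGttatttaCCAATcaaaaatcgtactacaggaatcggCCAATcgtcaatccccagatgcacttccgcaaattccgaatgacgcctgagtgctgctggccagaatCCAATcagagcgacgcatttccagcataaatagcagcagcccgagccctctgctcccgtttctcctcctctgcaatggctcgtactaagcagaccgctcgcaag
Hist1h1d: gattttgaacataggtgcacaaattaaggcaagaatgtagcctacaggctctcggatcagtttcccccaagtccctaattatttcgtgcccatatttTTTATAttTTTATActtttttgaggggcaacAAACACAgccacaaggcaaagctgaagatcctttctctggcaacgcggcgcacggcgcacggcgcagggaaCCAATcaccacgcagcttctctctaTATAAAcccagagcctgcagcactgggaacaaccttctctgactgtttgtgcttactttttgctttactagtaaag
Hist1h4d: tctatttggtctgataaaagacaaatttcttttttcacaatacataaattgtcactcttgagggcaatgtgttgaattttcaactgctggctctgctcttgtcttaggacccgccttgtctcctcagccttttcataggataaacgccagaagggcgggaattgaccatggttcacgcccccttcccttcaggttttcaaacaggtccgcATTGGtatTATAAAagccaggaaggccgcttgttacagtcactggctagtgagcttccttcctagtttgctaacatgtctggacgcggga
Hist1h4i: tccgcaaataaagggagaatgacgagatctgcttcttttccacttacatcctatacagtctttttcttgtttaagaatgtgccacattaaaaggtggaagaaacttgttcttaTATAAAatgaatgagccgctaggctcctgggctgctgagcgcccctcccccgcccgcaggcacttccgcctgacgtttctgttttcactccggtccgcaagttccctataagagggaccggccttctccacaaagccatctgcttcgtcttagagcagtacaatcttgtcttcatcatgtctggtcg
Hist1h2ac: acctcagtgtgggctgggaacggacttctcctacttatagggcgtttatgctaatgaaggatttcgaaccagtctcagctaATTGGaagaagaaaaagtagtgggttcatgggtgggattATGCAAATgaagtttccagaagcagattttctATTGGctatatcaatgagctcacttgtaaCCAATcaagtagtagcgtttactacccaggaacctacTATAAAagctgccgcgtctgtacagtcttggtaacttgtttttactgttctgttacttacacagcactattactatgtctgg
Counted as these exact letters anywhere in the window, Hist1h3e had the CCAAT box alone. Hist1h1d had the TATA box, the CCAAT box and the H1 box, and Hist1h4d had the TATA box and the CCAAT box. Hist1h4i, which moved opposite to these, had the TATA box alone. So did Hist1h4f, whose promoter is not shown and which rose on vehicle. Hist1h4h, which also rose, had none of the searched motifs. Hist1h2ac had the TATA box, the CCAAT box and the octamer, all in the window between it and Hist1h2bc. The start that RefSeq gives for Hist1h1d lies within the gene as annotated, which begins at base 23553262.

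The 70 genes lie at 4 places: 56 on chromosome 13, 10 on chromosome 3, 3 on chromosome 11 and 1, Hist4h4, on chromosome 6. Of them 67 are annotated as protein-coding and 3 as pseudogenes. The default expression filter of edgeR kept 31, of which 4 were H1, 4 H2A, 8 H2B, 6 H3 and 9 H4. The other 39 were not tested. Of these, 9 had no count in any library, among them Hist1h2ba, known as a testis histone. The remaining 30 had a median of 25 counts over all 24 libraries, and the highest were Hist1h2ab with 165, Hist1h4k with 156, Hist3h2ba with 141, Hist1h1b with 140 and Hist1h3b with 135. The 39 genes together held 1.61% of the histone counts, and the 4 highest genes of the 70 held 67.6%. The genes took 0.0328% of all counts in diabetic PMX-53 libraries, 0.0314% in diabetic vehicle libraries, 0.0318% in non-diabetic PMX-53 libraries and 0.0297% in non-diabetic vehicle libraries, as group means.

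Levels per length of annotated exon differed widely within each class. In non-diabetic vehicle mice Hist1h1c, the linker histone H1.2, was highest with 57.1 CPM per kb. Hist1h2bc followed with 43.5 CPM per kb, and the H4 genes Hist1h4c and Hist1h4h came next with 35.2 and 32.4 CPM per kb. Hist1h4c and Hist1h4h differed by less than their SDs of 4.12 and 3.91 CPM per kb, whereas Hist1h2bc (SD 5.71) stood above both by more than 1 SD. Hist1h1e had 16.7, Hist2h2ac 12.8 and Hist1h4d 11.2 CPM per kb. At the low end stood Hist1h2ac with 0.289 and Hist1h1d with 0.197 CPM per kb, and Hist1h1d has an annotated exon length of 7425 bases. CPM is the usual count scaled to library size, here after adjustment by the trimmed mean of M-values, and 1 CPM rested on about 11 to 22 counts in a library.

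**Figure D1:**
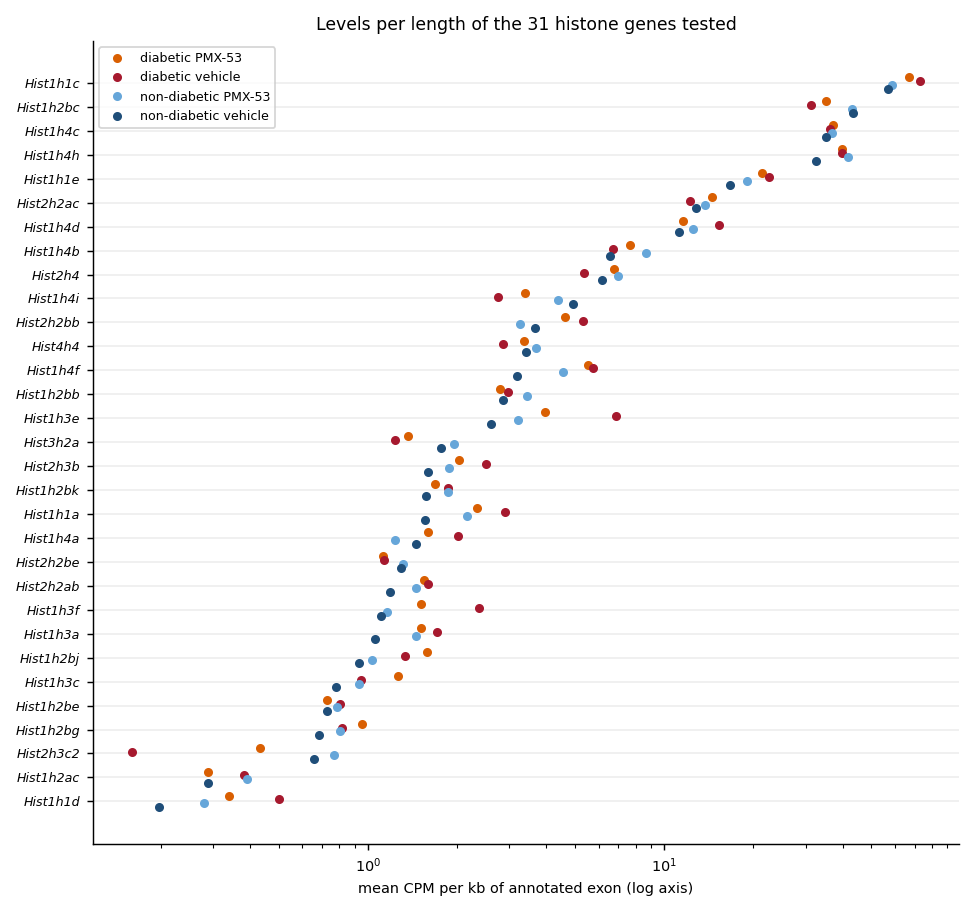
Mean level in each of the 4 groups (coloured points) of the 31 histone genes that passed the filter, in CPM per kb of annotated exon on a log axis, ordered by the level in non-diabetic vehicle mice. Hist1h1c at 57.1 and Hist1h1d at 0.197 CPM per kb mark the ends of that order, and both are H1 genes.

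One or a few genes made up most of each class. Over all libraries Hist1h1c held 69.7% of the H1 counts and Hist1h1e 27.1%. Hist1h2bc held 76.9% of H2B, with Hist1h2be next at 5.87%. Hist2h2ac held 51.9% of H2A and Hist3h2a 25.2%. In H3, Hist1h3e held 39.1% and Hist1h3f 21.5%, and in H4, Hist1h4c held 32.7% and Hist1h4h 19.9%. A class sum therefore follows its leading genes.

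Summed over each class, H3 was the class in which the diabetic and non-diabetic groups on vehicle did not overlap. The H3 sum was lowest at 6.52, median 8.89 and highest at 11.3 CPM in diabetic PMX-53 mice. It was 9.12, 12.7 and 14.2 CPM in diabetic vehicle mice, 7.06, 7.80 and 8.71 CPM in non-diabetic PMX-53 mice, and 5.59, 6.75 and 7.74 CPM in non-diabetic vehicle mice. Every diabetic vehicle library lay above every library of both non-diabetic groups, and the diabetic PMX-53 libraries overlapped all groups. The H1 sum averaged 150.3 ± 18.3 CPM in diabetic PMX-53, 163.8 ± 45.1 in diabetic vehicle, 132.7 ± 20.2 in non-diabetic PMX-53 and 124.4 ± 14.1 CPM in non-diabetic vehicle mice (SD, n = 6 each). One diabetic vehicle library, replicate 1, had 244.7 CPM, and without it the group averaged 147.6 ± 24.2 CPM (n = 5). The H2B sum averaged 54.2 ± 4.21 CPM on PMX-53 and 50 ± 7.12 CPM on vehicle in the diabetic groups, against 62.9 ± 3.35 and 62.9 ± 6.69 CPM in the non-diabetic groups on PMX-53 and on vehicle. H2A averaged 13.7 ± 1.26, 12.2 ± 1.68, 14.4 ± 1.10 and 13.2 ± 1.15 CPM in diabetic PMX-53, diabetic vehicle, non-diabetic PMX-53 and non-diabetic vehicle mice. H4 averaged 92.4 ± 8.25, 91.3 ± 9.42, 95.8 ± 6.03 and 85.5 ± 7.01 CPM in the same order, with overlapping groups. All classes together summed to 319.5 ± 28.4, 329.7 ± 47.1, 313.6 ± 24.4 and 292.6 ± 7.54 CPM. These sums carry no test of their own. In a bulk tissue, fewer cells of a type and less RNA per cell cannot be told apart, and this holds for every level below.

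**Figure D2:**
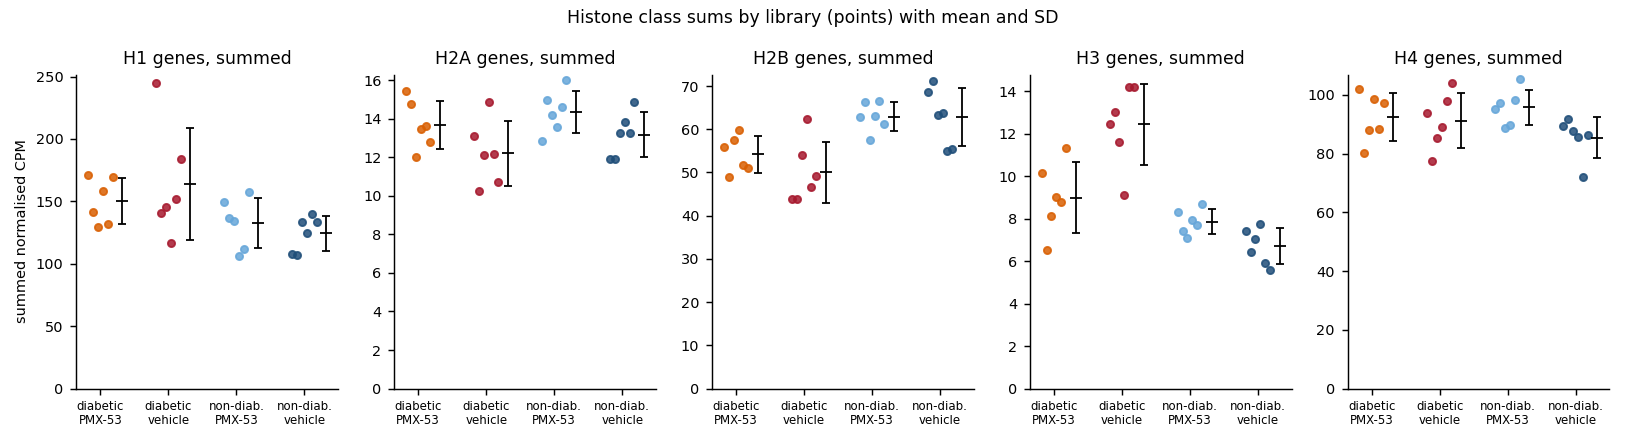
Normalised CPM summed over each histone class (vertical axis, from 0) for every library (points) of the 4 groups, with black marks for the group mean ± SD (n = 6). In H3 the diabetic vehicle libraries, 9.12 to 14.2 CPM, all lie above the non-diabetic vehicle libraries, 5.59 to 7.74 CPM, whereas the groups overlap in H4.

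The libraries carried the markers of renal cortex, with Lrp2 at 5483, 4499, 6348 and 6423 CPM and Nphs1 at 23.3, 17.1, 17.8 and 15.3 CPM as means of diabetic PMX-53, diabetic vehicle, non-diabetic PMX-53 and non-diabetic vehicle mice. The diabetic vehicle libraries stood apart at single genes: Nnt, encoding a mitochondrial transhydrogenase, was at 241.7 to 271.8 CPM in them and at 101.0 to 120.6 CPM in the other 18 libraries. Within that group replicate 4 differed from the rest, with the lowest C3 (29.5 CPM, group highest 537.2) and the highest Kap (5556 CPM, group lowest 144.8). What sets these libraries apart cannot be told apart from diabetes on vehicle or from the inhibitor in diabetic mice. Because replicate 4 differed within its group, each comparison below that uses the diabetic vehicle libraries was also run without it. Such a refit does not bear on what the whole group shares. The 4 comparisons between groups share their groups in pairs, so none repeats another independently. The labels name separate samples without naming animals, so each p-value rests on the spread between these samples, some of which may be technical.

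Diabetes on vehicle gave the most calls among the histone genes, and they went in both directions. Of 31 tested, 9 rose and 4 fell by edgeR's quasi-likelihood test, that is 29.0% and 12.9%, against 20.4% of all 15808 tested genes higher and 19.9% lower. The median log2 fold change of the 31 was 0.31, against 0.00 over all genes tested. By class, 3 of 4 H1 genes rose and none fell, 2 of 6 H3 genes rose and 1 fell, 3 of 9 H4 genes rose and 1 fell, 1 of 8 H2B genes rose and 1 fell, and 1 of 4 H2A genes fell. The share higher was above that of all genes and the share lower below it, and no test here sets the histone genes apart as a group. Without diabetic vehicle replicate 4 the counts were 10 higher and 5 lower.

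In H3, the partner of H4 at the core of the nucleosome, Hist1h3e (ENSMUSG00000069273, chromosome 13, bases 23561534 to 23562369) had the smallest p. It was lowest at 2.39, median 3.36 and highest at 4.39 CPM in diabetic PMX-53 mice. In diabetic vehicle mice it was 3.32, 5.88 and 7.41 CPM, against 2.37, 2.59 and 3.33 CPM in non-diabetic PMX-53 mice and 1.18, 2.21 and 2.93 CPM in non-diabetic vehicle mice. The diabetic vehicle libraries all lay above the non-diabetic vehicle libraries, with replicate 4 the lowest of them. On vehicle the log2 fold change was 1.40 ± 0.176 (SE, edgeR adjusted p = 6.19e-07), and 1.51 without replicate 4. Hist1h3e made up 36.7 ± 3.89% of the H3 sum in diabetic PMX-53 mice, 45.7 ± 5.99% in diabetic vehicle mice, 34.0 ± 2.72% in non-diabetic PMX-53 mice and 32.8 ± 8.35% in non-diabetic vehicle mice.

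Hist1h3f (ENSMUSG00000100210, chromosome 13, bases 23544052 to 23545312) encodes the same H3 protein. Its lowest, median and highest levels were 1.04, 1.77 and 3.04 CPM in diabetic PMX-53 mice and 2.49, 2.99 and 3.53 CPM in diabetic vehicle mice. They were 1.27, 1.49 and 1.74 CPM in non-diabetic PMX-53 mice and 0.944, 1.38 and 1.77 CPM in non-diabetic vehicle mice. It rose on vehicle by a log2 fold change of 1.09 ± 0.190 (edgeR adjusted p = 5.38e-05), with no overlap between the groups. Hist2h3c2 (ENSMUSG00000081058, chromosome 3, bases 96238108 to 96239127), another gene for this protein, went the other way at a very low level. It had 198 counts in all, and its lowest, median and highest levels were 0.00, 0.489 and 0.696 CPM in diabetic PMX-53 mice and 0.00, 0.170 and 0.383 CPM in diabetic vehicle mice. In non-diabetic PMX-53 mice they were 0.491, 0.682 and 1.27 CPM, and in non-diabetic vehicle mice 0.144, 0.739 and 0.911 CPM. Its log2 fold change on vehicle was -2.03 ± 0.514 (edgeR adjusted p = 0.00246), and -2.42 without replicate 4. Hist1h3a (0.68, adjusted p = 0.0577), Hist2h3b (0.64, adjusted p = 0.0623) and Hist1h3c (0.31, adjusted p = 0.437) did not pass in the same edgeR test.

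**Figure D3:**
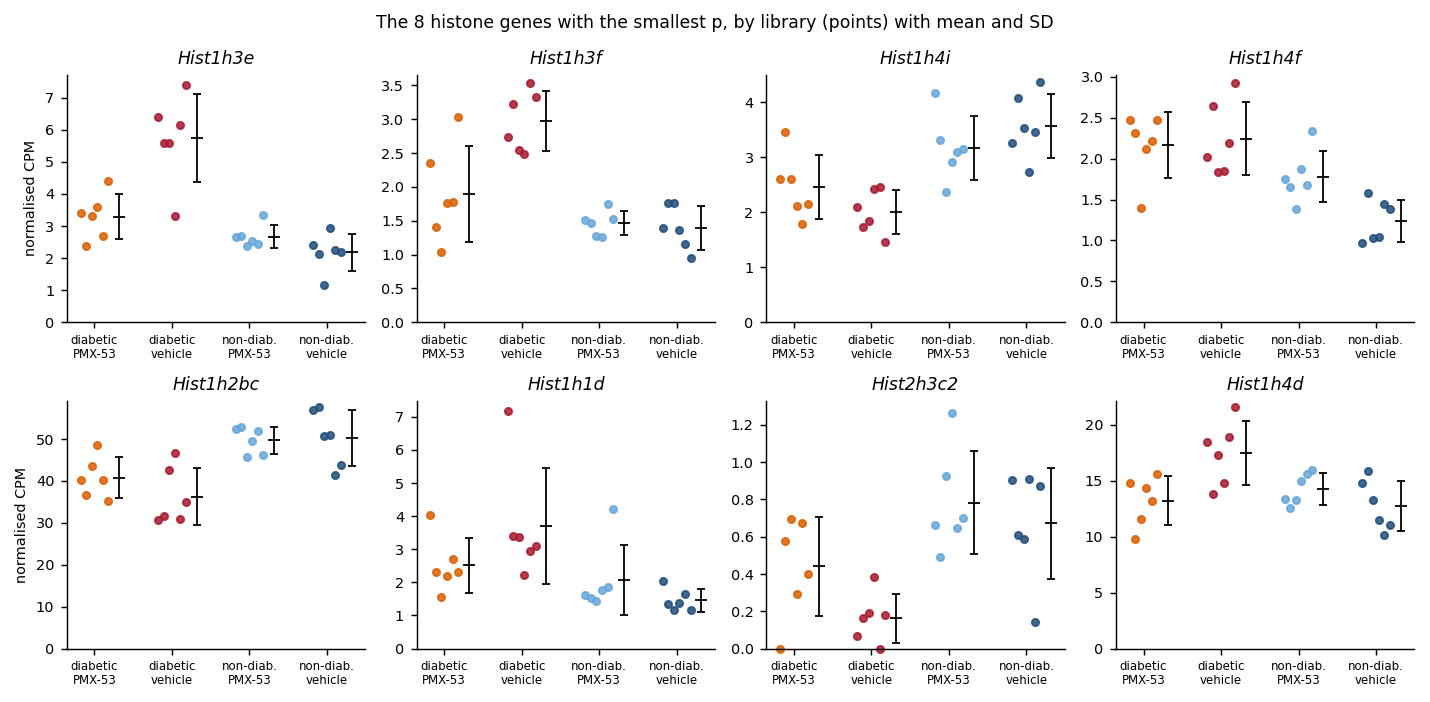
Normalised CPM, on an axis from 0, of the 8 histone genes with the smallest p in every library (points) of the 4 groups, with black marks for the group mean ± SD (n = 6). Hist1h3e reads 3.32 to 7.41 CPM in diabetic vehicle libraries, against 1.18 to 2.93 CPM in non-diabetic vehicle libraries, and Hist1h4i lies the other way round.

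The H4 genes encode an identical protein in all 13 annotated copies, and those tested moved apart from each other. Hist1h4i (ENSMUSG00000060639, chromosome 13, bases 22040636 to 22041362) had lowest, median and highest levels of 1.78, 2.38 and 3.47 CPM in diabetic PMX-53 mice and 1.47, 1.96 and 2.46 CPM in diabetic vehicle mice. In non-diabetic PMX-53 mice they were 2.37, 3.13 and 4.16 CPM, and in non-diabetic vehicle mice 2.73, 3.50 and 4.36 CPM. The groups on vehicle did not overlap, and the gene fell by 0.84 ± 0.163 on the log2 scale (edgeR adjusted p = 1.82e-04). Hist1h4f (ENSMUSG00000069274, chromosome 13, bases 23551258 to 23551648) rose, with 1.39, 2.26 and 2.48 CPM in diabetic PMX-53 mice and 1.84, 2.11 and 2.93 CPM in diabetic vehicle mice. It had 1.39, 1.71 and 2.34 CPM in non-diabetic PMX-53 mice and 0.967, 1.21 and 1.58 CPM in non-diabetic vehicle mice. On vehicle the groups did not overlap and the log2 fold change was 0.87 ± 0.176 (edgeR adjusted p = 2.99e-04).

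Hist1h4d (ENSMUSG00000061482, chromosome 13, bases 23581598 to 23582735), a better counted H4 gene, was lowest at 9.82, median 13.7 and highest at 15.6 CPM in diabetic PMX-53 mice and at 13.8, 17.9 and 21.5 CPM in diabetic vehicle mice. It was at 12.52, 14.2 and 15.95 CPM in non-diabetic PMX-53 mice and at 10.1, 12.4 and 15.9 CPM in non-diabetic vehicle mice. It rose on vehicle by 0.45 ± 0.118 on the log2 scale (edgeR adjusted p = 0.00328), with some overlap between the groups. As a share of the H4 sum it took 14.2 ± 1.33% in diabetic PMX-53, 19.1 ± 1.54% in diabetic vehicle, 14.9 ± 1.34% in non-diabetic PMX-53 and 14.9 ± 1.75% in non-diabetic vehicle mice. Hist1h4h rose by 0.29 ± 0.112 on vehicle (edgeR adjusted p = 0.0366). Without replicate 4 its change was 0.29, hardly different, and just missed the threshold (edgeR adjusted p = 0.0532). Hist1h4c (ENSMUSG00000060678, chromosome 13, bases 23697635 to 23698454), the highest H4 gene, had groups that overlapped throughout. Its lowest, median and highest levels were 24.7, 31.2 and 33.5 CPM in diabetic PMX-53, 24.0, 30.2 and 34.5 in diabetic vehicle, 27.1, 30.3 and 32.8 in non-diabetic PMX-53 and 22.7, 29.5 and 32.6 CPM in non-diabetic vehicle mice. Its log2 fold change on vehicle was 0.04 ± 0.0895. Hist4h4 at -0.26, Hist2h4 at -0.21, Hist1h4b at 0.02 and Hist1h4a at 0.48 did not pass either.

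Among the linker histones, which bind DNA between nucleosomes, Hist1h1d, Hist1h1a and Hist1h1e rose on vehicle. Hist1h1d (ENSMUSG00000052565, chromosome 13, bases 23553262 to 23560686), histone H1.3, had lowest, median and highest levels of 1.57, 2.31 and 4.03 CPM in diabetic PMX-53 mice and 2.23, 3.24 and 7.18 CPM in diabetic vehicle mice. In non-diabetic PMX-53 mice they were 1.45, 1.70 and 4.21 CPM and in non-diabetic vehicle mice 1.16, 1.35 and 2.05 CPM. The groups on vehicle did not overlap, and the log2 fold change was 1.32 ± 0.291 (edgeR adjusted p = 7.96e-04). The highest library of the diabetic vehicle group was replicate 1, and without it the change was 1.04 (edgeR adjusted p = 0.00223). Hist1h1a averaged 2.15 CPM in diabetic vehicle mice and 1.16 CPM in non-diabetic vehicle mice, a log2 fold change of 0.89 ± 0.243 (edgeR adjusted p = 0.00445). Hist1h1e averaged 43.7 CPM in diabetic vehicle mice and 32.3 CPM in non-diabetic vehicle mice, a log2 fold change of 0.44 ± 0.143 (edgeR adjusted p = 0.0169), with 5 of 6 diabetic libraries above the non-diabetic mean. Without diabetic vehicle replicate 1 its change was 0.34 and did not pass (edgeR adjusted p = 0.0546). The exons of Hist1h1e overlap those of Hist1h2be and the gene model Gm11398 on the same strand.

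Hist1h1c (ENSMUSG00000036181, chromosome 13, bases 23738808 to 23740367), the most abundant of the genes, did not pass on vehicle. Its lowest, median and highest levels were 86.9, 106.7 and 121.5 CPM in diabetic PMX-53 mice and 79.4, 101.6 and 175.8 CPM in diabetic vehicle mice. They were 73.6, 95.8 and 109.9 CPM in non-diabetic PMX-53 mice and 71.9, 92.2 and 100.9 CPM in non-diabetic vehicle mice. The log2 fold change on vehicle was 0.35 ± 0.150 (edgeR adjusted p = 0.0627). It depended on single libraries, at 0.44 (adjusted p = 0.0175, edgeR) without diabetic vehicle replicate 4 and at 0.19 without replicate 1.

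H2B and H2A form the dimers that flank the H3 and H4 core. Hist1h2bc (ENSMUSG00000018102, chromosome 13, bases 23684199 to 23692908), which carries most H2B counts, was lowest at 35.2, median 40.3 and highest at 48.6 CPM in diabetic PMX-53 mice and at 30.7, 33.3 and 46.6 CPM in diabetic vehicle mice. It was at 45.6, 50.6 and 52.9 CPM in non-diabetic PMX-53 mice and at 41.5, 50.8 and 57.7 CPM in non-diabetic vehicle mice. The gene fell on vehicle by 0.48 ± 0.101 on the log2 scale (edgeR adjusted p = 5.59e-04). Replicates 3 and 4 of the diabetic vehicle group, at 42.5 and 46.6 CPM, reached into the range of the non-diabetic vehicle libraries, and without replicate 4 the log2 fold change was -0.56. Hist1h2be and Hist1h2bg, which encode the same protein, had log2 fold changes of 0.15 ± 0.189 and 0.27 ± 0.305 and did not pass. Hist2h2bb rose by 0.54 ± 0.204 (edgeR adjusted p = 0.0355), with means of 2.03 CPM in diabetic vehicle mice and 1.39 CPM in non-diabetic vehicle mice, and it overlaps the gene models Gm42743 and Gm20628. Without diabetic vehicle replicate 1 it was at 0.52 and did not pass (edgeR adjusted p = 0.0619). The other H2B genes tested, Hist1h2bj at 0.52, Hist1h2bk at 0.26, Hist1h2bb at 0.05 and Hist2h2be at -0.20, did not pass.

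In H2A, Hist3h2a fell on vehicle, with means of 2.64 CPM in diabetic vehicle mice and 3.77 CPM in non-diabetic vehicle mice and a log2 fold change of -0.53 ± 0.172 (edgeR adjusted p = 0.0160). It overlaps Trim17 on the same strand, so reads of these genes may not be separable. The highest H2A gene, Hist2h2ac (ENSMUSG00000068855, chromosome 3, bases 96220361 to 96220880), had lowest, median and highest levels of 6.15, 7.37 and 9.48 CPM in diabetic PMX-53, 4.90, 6.41 and 7.502 CPM in diabetic vehicle, 6.22, 7.11 and 8.16 CPM in non-diabetic PMX-53 and 5.71, 6.77 and 7.22 CPM in non-diabetic vehicle mice. The groups overlapped throughout, and its log2 fold change on vehicle was -0.07 ± 0.110. Hist1h2ac and Hist2h2ab, at 0.39 and 0.42, did not pass either.

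**Figure D4:**
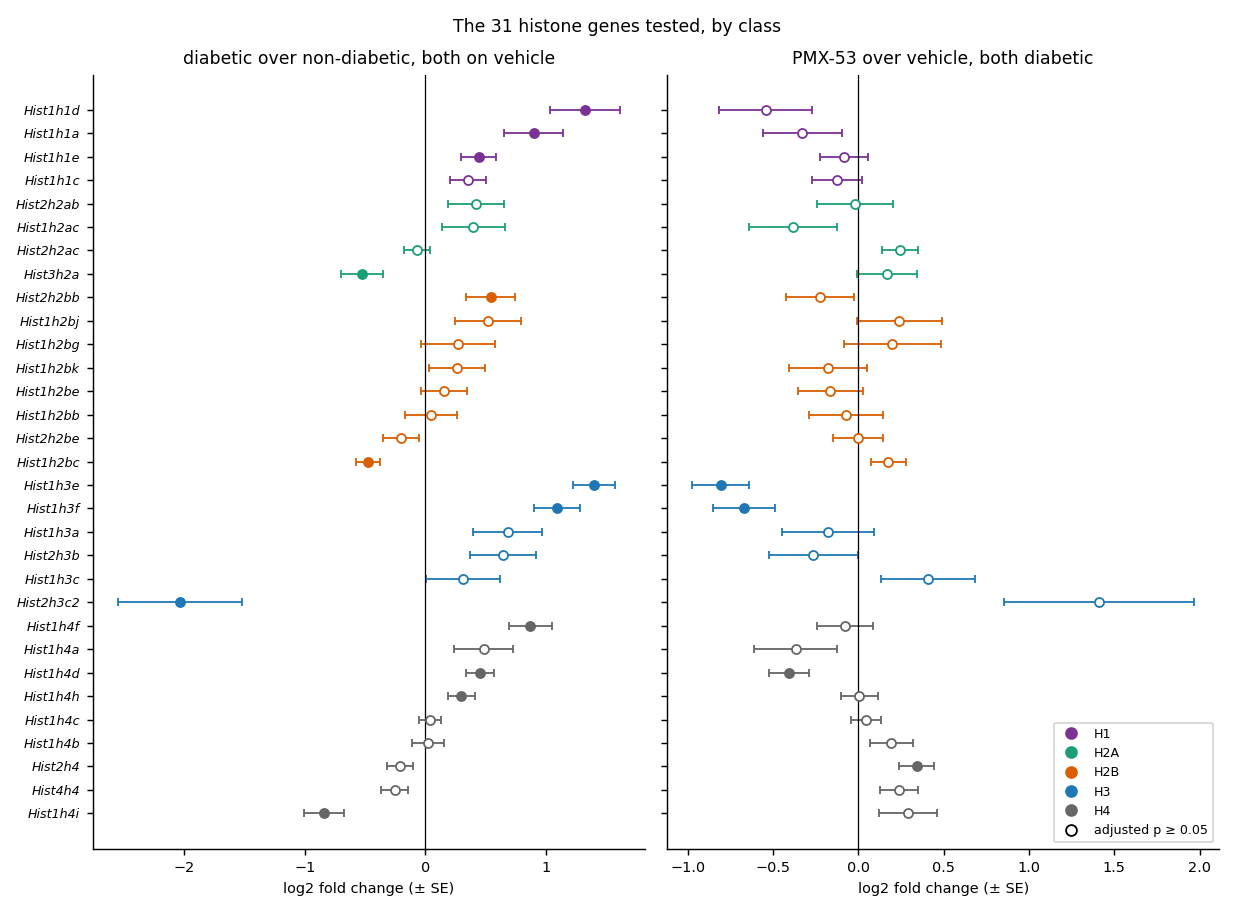
Log2 fold change ± SE of the 31 tested histone genes, coloured by class, for diabetes on vehicle (left) and for PMX-53 in diabetic mice (right), with filled points for an edgeR adjusted p under 0.05. On vehicle the called genes run from -2.03 for Hist2h3c2 to 1.40 for Hist1h3e, and in the right panel Hist1h3e, Hist1h3f, Hist1h4d and Hist2h4 are the filled points.

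PMX-53 in diabetic mice lowered 3 of the 31 genes and raised 1, and all 4 belong to H3 or H4. These are 9.68% lower and 3.23% higher, against 13.5% of all tested genes lower and 13.9% higher, so both shares were under those of genes at large. Hist1h3e fell by 0.81 ± 0.167 on the log2 scale (edgeR adjusted p = 7.41e-04), with every PMX-53 library below the mean of the vehicle libraries, and the change was -0.92 without vehicle replicate 4. Hist1h3f fell by 0.67 ± 0.183 (edgeR adjusted p = 0.00741), with 5 of 6 PMX-53 libraries below that mean. Hist1h4d fell by 0.40 ± 0.118 (edgeR adjusted p = 0.0119). For each of the 3 genes the groups overlapped in part. Hist2h4, another H4 gene, rose by 0.34 ± 0.104 (edgeR adjusted p = 0.0158), with 11.03 CPM in diabetic PMX-53 mice and 8.71 CPM in diabetic vehicle mice. Hist2h3c2 had a log2 fold change of 1.41 ± 0.557 and did not pass (edgeR adjusted p = 0.0595). Without diabetic vehicle replicate 4, 3 genes rose and 3 fell, with Hist2h3c2 (1.80, edgeR adjusted p = 0.0240) and Hist1h2bc (0.26, edgeR adjusted p = 0.0378) added to those that rose. Hist1h1d, at -0.54, and Hist1h4f, at -0.08, did not pass.

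In non-diabetic mice PMX-53 changed none of the 31 genes by edgeR, as 0% of all tested genes were higher and 0% lower. DESeq2 and limma voom also called 0, and 3 genes had an unadjusted p under 0.05. These 3 were H4 genes with positive values: Hist1h4h at 0.36, Hist1h4b at 0.40 and Hist1h4f at 0.52 on the log2 scale. Hist1h3e was at 0.29 ± 0.190 (edgeR adjusted p = 0.811). The median of the 31 was 0.19, against 0.00 over all genes tested.

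Diabetes in mice on PMX-53 lowered 1 gene, 3.23% of the 31, against 4.52% of all tested genes lower and 5.52% higher. It was Hist3h2a, with means of 2.93 CPM in diabetic PMX-53 mice and 4.18 CPM in non-diabetic PMX-53 mice and a log2 fold change of -0.52 ± 0.169 (edgeR adjusted p = 0.0498), a call that held in 6 of the 24 fits that each leave out 1 library. Hist1h2bc was at -0.28 (adjusted p = 0.0763), Hist1h3e at 0.30 ± 0.180 (adjusted p = 0.317) and Hist1h3f at 0.36 (adjusted p = 0.270) in the same edgeR test. This comparison leaves out the diabetic vehicle libraries, which entered it only through the shared expression filter, scaling and estimate of the spread.

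The interaction, which subtracts the PMX-53 effect of non-diabetic mice from that of diabetic mice, was negative for 2 genes and positive for none. That is 6.45% of the 31, against 4.76% of all tested genes lower and 4.66% higher. Hist1h3e had an interaction of -1.09 ± 0.253 (edgeR adjusted p = 0.00731), the difference between -0.81 in diabetic mice and 0.29 in non-diabetic mice. Hist1h4d had -0.56 ± 0.168 (edgeR adjusted p = 0.0351), and this call held in 12 of the 24 fits that each leave out 1 library. Among the fits that lost it were those without diabetic vehicle replicate 1 (-0.55, edgeR adjusted p = 0.0550) and without non-diabetic PMX-53 replicate 6 (-0.53, edgeR adjusted p = 0.0592). Hist1h3f (-0.73, adjusted p = 0.0981), Hist1h1d (-1.04, adjusted p = 0.112) and Hist1h4f (-0.60, adjusted p = 0.125) did not pass the edgeR test of the interaction.

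The chromosome 13 cluster holds 55 of the 70 genes over 2219.1 kb, with 1 gap of 1487.8 kb. The first 20 genes in map order were all under the filter. Of the 22 tested there, 8 rose and 2 fell on vehicle, and of the 9 tested outside it, 1 rose and 2 fell, against 20.4% higher and 19.9% lower among all tested genes. The difference between the cluster and the other places was not tested. Hist1h3f, Hist1h4f, Hist1h1d and Hist1h3e are 4 consecutive genes in map order, and each rose on vehicle. Hist1h1d and Hist1h3e run towards each other, with 848 bases between their annotated ends. Hist1h2bc and Hist1h2ac start 251 bases apart and run in opposite directions, and on vehicle their log2 fold changes were -0.48 and 0.39. Reads from overlapping or facing genes may not be separable, since the strand setting of the counting is not given in the sources used here.

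**Figure D5:**
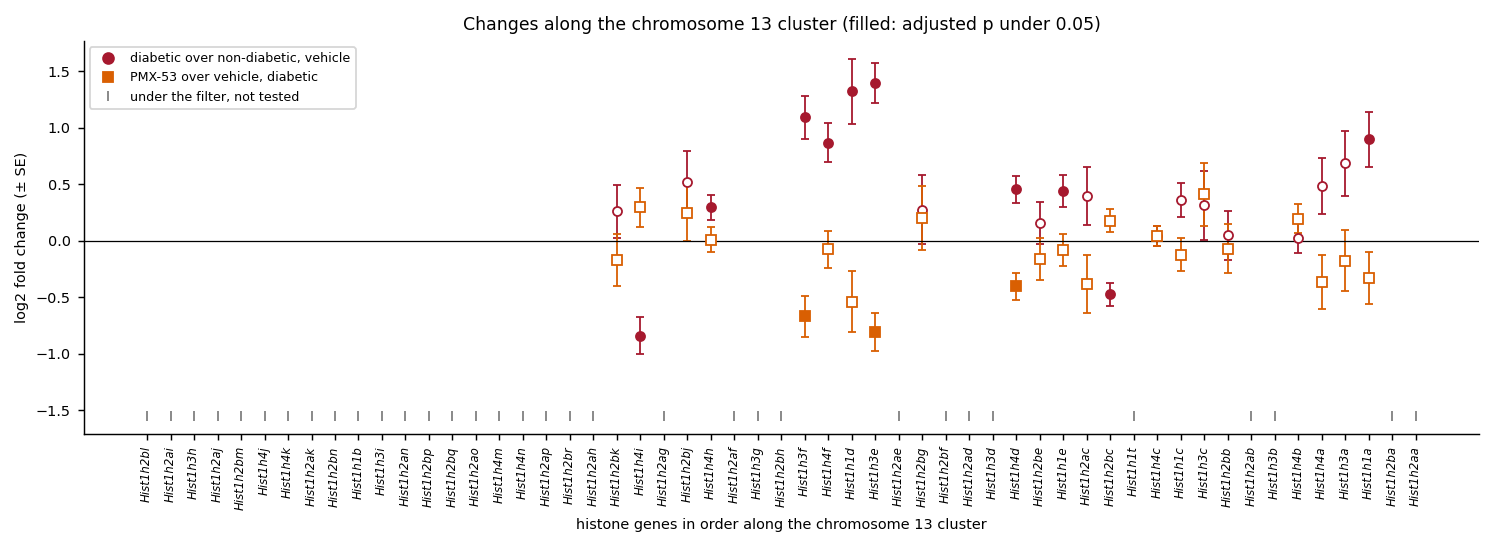
Log2 fold change ± SE (vertical axis) along the genes of the chromosome 13 cluster in map order (horizontal axis), with circles for diabetes on vehicle, squares for PMX-53 in diabetic mice, filled symbols for an edgeR adjusted p under 0.05 and ticks for genes under the filter. The circles of the 4 consecutive genes Hist1h3f, Hist1h4f, Hist1h1d and Hist1h3e are all positive and filled, and the first 20 genes of the order carry ticks.

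Genes for one and the same protein did not share a direction. Among 9 tested H4 genes, log2 fold changes on vehicle ran from -0.84 to 0.87. By the longest annotated coding sequence of each gene, Hist1h3b to Hist1h3f, Hist2h3b and Hist2h3c2 are 7 genes for the same H3 protein. Of these 5 were tested, and their values ran from -2.03 to 1.40. Hist2h3c1, which had no counts, fell outside the group by that rule. The 3 genes of the H2B protein of Hist1h2bc ran from -0.48 to 0.27. Some copies have an identical coding sequence, and reads from within it cannot be assigned between them. These were the pairs Hist1h2ao and Hist1h2ap, Hist2h2aa1 and Hist2h2aa2, and Hist1h2bq and Hist1h2br, all with no counts. Hist1h4m and Hist1h4n, with 3 and 5 counts, were such a pair too. None of these pairs was tested. The longest annotated coding sequence has 546 bases in Hist2h3c1 and 411 in Hist2h3c2, so this comparison could not pair them. Whether reads of Hist2h3c2, which was tested, can be assigned apart from Hist2h3c1 was not examined. Of the 22 genes annotated for more than 100 bases past the stem and loop, 15 were tested, and 5 rose and 3 fell on vehicle. Of the 22 with a shorter annotated end, 9 were tested and 2 rose, and of the 26 without a match 7 were tested, with 2 higher and 1 lower. Among all tested genes 20.4% rose and 19.9% fell on vehicle, and differences between these annotation groups were not tested.

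Factors that process and degrade histone mRNA were measured in the same libraries. Of 21 tested, 6 fell and none rose on vehicle, with a median log2 fold change of -0.09, where 19.9% of all tested genes fell and 20.4% rose. Those with the smallest p were Upf1, a helicase of histone mRNA decay, at -0.34 (adjusted p = 1.40e-05), the cap-binding subunit Ncbp2 at -0.49 (adjusted p = 5.03e-05), the cap-associated factor Srrt at -0.16 and the U7 particle protein Lsm11 at -0.34 (adjusted p = 0.0149), all by edgeR. Slbp did not pass, at -0.04 ± 0.0933 (edgeR adjusted p = 0.736), with means of 8.79, 8.41, 8.61 and 8.70 CPM in diabetic PMX-53, diabetic vehicle, non-diabetic PMX-53 and non-diabetic vehicle mice. In diabetic mice on PMX-53, 6 of the 21 rose (13.9% of all tested genes), among them Upf1 at 0.26 and Ncbp1 at 0.40, and 1 fell (13.5% of all), Npat, the coactivator of histone transcription, by 0.21 (edgeR adjusted p = 0.0194).

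Genes of S phase and of dividing cells were measured beside the histones. On vehicle 7 of 25 tested S phase genes rose and 3 fell, against 20.4% higher and 19.9% lower among all tested genes, with E2f1 at 1.06 (adjusted p = 1.12e-05), Uhrf1 at 0.86 and the ribonucleotide reductase subunit Rrm2 at 0.82. In diabetic mice on PMX-53, 1 of the 25 rose and 3 fell, against 13.9% higher and 13.5% lower among all, and those that fell were E2f1 at -0.42, Rrm2 at -0.50 and Pcna at -0.26. Of 14 markers of proliferating cells, 6 rose and none fell on vehicle, where 20.4% of all tested genes rose, with Ccnb1 at 1.64 (edgeR adjusted p = 0.00242) and Mki67 at 0.80 (edgeR adjusted p = 0.0259), whereas Top2a, at 0.49, did not pass. Their summed level was 29.0 ± 10.4 CPM in diabetic PMX-53 and 31.95 ± 9.30 CPM in diabetic vehicle mice, against 19.6 and 20.1 CPM in the non-diabetic groups on PMX-53 and on vehicle. In diabetic mice on PMX-53, 1 of the 14, Nusap1, fell, by 0.56. The part of dividing cells in the histone levels was not tested.

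Histone variants made outside S phase, which replace the replication-dependent forms in resting cells, were measured too. Of 11 tested, 2 rose and 1 fell on vehicle, no more than the 20.4% higher and 19.9% lower among all tested genes: H2afz, the H2A.Z gene, at 0.25 (edgeR adjusted p = 0.00240), H3f3b, an H3.3 gene, at 0.20 (edgeR adjusted p = 0.0237), and H2afj at -0.31 (edgeR adjusted p = 0.00217). In diabetic mice the inhibitor lowered 3 of the 11, where 13.5% of all tested genes fell: H2afz at -0.28, H2afv at -0.18 and H3f3a at -0.15. Of 18 histone chaperones, 4 rose and 5 fell on vehicle, near the same 20.4% and 19.9%, with Chaf1b, a subunit of the chromatin assembly factor CAF-1, at 1.77 (edgeR adjusted p = 1.07e-05) and Nap1l1 at -0.54. Chaf1b was at -1.07 with PMX-53 in diabetic mice. There 5 of the 18 chaperones rose and Chaf1b alone fell, against 13.9% higher and 13.5% lower among all tested genes.

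Other RNAs without a poly(A) tail were followed in the same libraries. Of 9 tested small RNAs of this kind, 2 rose on vehicle, near the 20.4% among all tested genes: Rpph1 at 0.71 (edgeR adjusted p = 2.91e-06) and Rmrp at 0.53 (edgeR adjusted p = 0.00284), with a list median of 0.58. In diabetic mice PMX-53 lowered 5 of the 9, where 13.5% of all tested genes fell, with a median of -0.66. All 9 had positive values on vehicle, and all 9 had negative values with PMX-53 in diabetic mice. Their sums were 6993 ± 1450 CPM in diabetic PMX-53 mice, 10020 ± 1475 in diabetic vehicle mice, 7291 CPM in non-diabetic PMX-53 mice and 6704 ± 1825 CPM in non-diabetic vehicle mice. Of the 31 histone genes tested, 23 had positive and 8 negative values on vehicle. With PMX-53 in diabetic mice 14 were positive and 17 negative. Called histone genes had both signs on vehicle and with PMX-53 in diabetic mice. Hist1h3e, Hist1h3f and Hist1h4d rose on vehicle and fell with PMX-53 in diabetic mice. Hist1h4i, Hist1h2bc, Hist2h3c2 and Hist3h2a fell on vehicle, and Hist2h4 rose with PMX-53 in diabetic mice. The mitochondrially encoded share of counts was also highest in diabetic vehicle libraries, at 25.8%, 29.5%, 22.9% and 22.6% in diabetic PMX-53, diabetic vehicle, non-diabetic PMX-53 and non-diabetic vehicle mice. The part of RNA composition in the histone results was not tested.

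Markers of several cell types differed between the groups and those of others did not. On vehicle 20.4% of all tested genes rose and 19.9% fell. In that comparison all 3 tested B and plasma cell markers and all 3 red cell markers fell. Of 5 proximal tubule markers 2 rose and 3 fell. Of 4 distal nephron and collecting duct markers 2 rose and 1 fell, of 5 macrophage markers 1 fell, and none of 3 glomerular, 3 T cell and 1 medullary markers passed. Of 7 cell cycle inhibitors 3 rose, among them Cdkn1a, which encodes p21, at 3.57. With PMX-53 in diabetic mice 13.9% of all tested genes rose and 13.5% fell. In that comparison all 3 B and plasma cell, all 3 red cell and all 3 glomerular markers rose. So did 3 of 5 proximal tubule markers and 1 of 3 T cell markers. There 1 of 4 distal nephron and collecting duct markers rose and 2 fell, the 1 medullary marker tested fell by 2.01 on the log2 scale, and none of 5 macrophage markers passed. The summed proximal tubule markers were at 12190, 9825, 13570 and 13330 CPM in diabetic PMX-53, diabetic vehicle, non-diabetic PMX-53 and non-diabetic vehicle mice. Their part in the histone results was not tested.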

How the data were processed

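Counts per gene were deposited by the authors as whole numbers, not normalised, per the file headers and values. The submitters' processing notes name bcl2fastq 2.20.0.422, STAR and the GRCm38 build. Libraries were made from 200 ng of RNA with a directional kit, per the labels' protocols. Not given in the sources used here are the STAR version, annotation, counting tool and strand setting. All 24 libraries, of 10964992 to 22000895 counts, entered 1 model with a coefficient per group in R 4.3.3 with edgeR 4.0.16 (default expression filter, 15808 genes kept, TMM scaling, robust quasi-likelihood F test, Benjamini-Hochberg adjustment over those genes, threshold 0.05). SEs of log2 fold changes were obtained by dividing each by the square root of its F. Within groups, 60 pairs of libraries differed beyond counting noise and 0 were identical. The 5 comparisons were rerun with DESeq2 1.42.0, limma 3.58.1 voom, other scalings and filters, a replicate block, thinned libraries and libraries left out. The model was tested on simulated data. Named genes were the up to 8 called genes with the smallest p, the highest gene of each class and up to 4 genes of each other list. Nnt, C3 and Kap, outside that rule, were picked with their values seen. A gene that the rule takes is not reported here. The histone genes, 15 other gene lists and tests were chosen with earlier results of these data known.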

Additional observations from a re-analysis of the deposited data

Results flagged for a closer look

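Among 64 groups of 6 libraries examined for a library far from the others, 5 had one, and chance gives about 1 in 20. For Hist1h1d, diabetic vehicle replicate 1 had 7.176 CPM, with the other 5 libraries at 2.233 to 3.392 CPM. Also for Hist1h1d, non-diabetic PMX-53 replicate 6 had 4.208 CPM, with the others at 1.447 to 1.872 CPM. The same library had the highest Hist1h3e of its group, at 3.331 CPM against 2.374 to 2.701 CPM. For Hist1h4f, diabetic PMX-53 replicate 3 had 1.391 CPM, with the others at 2.118 to 2.478 CPM. The H4 sum of non-diabetic vehicle replicate 5 was 71.90 CPM, with the others at 85.63 to 91.71 CPM.

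For 2 genes the effect of PMX-53 differed between diabetic and non-diabetic mice by the interaction test. The difference was -1.0945 on the log2 scale for Hist1h3e and -0.5617 for Hist1h4d. The first was called in all 9 alternatives that give an interaction and with each of the 24 libraries left out, and the second in 7 of the 9 and with 12 of the 24 left out.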

How the results depend on the processing

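Calls of the 31 histone genes numbered 13 for diabetes on vehicle, 4 for PMX-53 in diabetic mice, 0 for PMX-53 in non-diabetic mice, 1 for diabetes on PMX-53 and 2 for the interaction. With library totals in place of TMM they numbered 11, 7, 0, 0 and 1; this scaling moved the median of all genes by -0.095 on vehicle and by 0.119 for PMX-53 in diabetic mice, and took the share of called genes that were higher to 31.2% on vehicle, against 50.7%, and to 79.5% for PMX-53 in diabetic mice, against 50.7%. Under it 5 of the 7 genes rose with PMX-53 in diabetic mice. Diabetes on PMX-53 gave 2 calls with voom and with only its own groups, 0 without mitochondrially encoded and ribosomal RNA genes and 0 with thinned libraries. With no filter the interaction gave 1 call. With single libraries left out the counts ran from 10 to 15, 4 to 6, 0 to 0, 0 to 2 and 1 to 3. With the replicate block they were 13, 4, 0, 1 and 2, the call in diabetes on PMX-53 being another gene. Libraries with the same number had correlations of -0.124 to 0.131 over 36 pairs, and in 1 of the 36 the own number was the highest. This gave no sign that the numbers pair the samples, and it cannot exclude a pairing. The cause of these changes was not tested.

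On vehicle Hist1h3e, Hist1h3f, Hist1h4i, Hist1h4f, Hist1h4d, Hist1h2bc, Hist1h1d and Hist1h1a were called in all 10 alternatives and all 24 refits without a library. Hist1h3e, Hist1h3f and Hist2h4 were likewise called for PMX-53 in diabetic mice, and Hist1h4d in 9 of 10, not with library totals (-0.30, adjusted p = 0.071). Hist3h2a on PMX-53 was called in 5 of 10 and 6 of 24. Of the values for named genes and class sums under the alternatives, 677 counted as unchanged, 16 passed the threshold newly and 4 no longer passed it. For genes, unchanged means the same side of the threshold, and for class sums a move smaller than the spread between libraries. Among genes called in the main fit or in the alternative, 0 changed sign, and sign changes of uncalled genes were not counted. On vehicle Hist1h1e was called in 23 of 24 refits, Hist3h2a in 22, and Hist2h2bb and Hist1h4h in 17 each. The 39 genes under the filter were not tested by choice of that filter, and most hold few counts.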
